A study of Mus musculus with 106 samples.

Results

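The chow-fed liver of the NZO/HlLtJ strain, the New Zealand Obese mouse, was compared with the chow-fed livers of the other 8 inbred strains of the series. All libraries labelled NZO/HlLtJ on the control chow (CD) were taken, 3 from females and 3 from males, which is 6 of the 106 libraries. They were set against 47 chow libraries of 129S1/SvImJ, A/J, C57BL/6J, CAST/EiJ, DBA/2J, NOD/ShiLtJ, PWK/PhJ and WSB/EiJ, with 3 females and 3 males per strain. 1 library, labelled 129S1/SvImJ female, was left out because its sex-linked genes did not match its label. Each library came from the liver of 1 mouse aged 21 weeks. In the chow, fat made up 6%, protein 20% and carbohydrate 74% of the calories. A second set of mice ate a high-fat diet (HFD), with 60% of calories from fat, 20% from protein and 20% from carbohydrate, from 8 weeks of age. On that diet NZO/HlLtJ had 3 females and 1 male, and these mice were used only as a separate set in which to look at the same genes. All strains were bred in 1 facility, the livers were perfused before they were frozen, and no group carried a transgene or received a drug per the labels.

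NZO/HlLtJ is an inbred model of polygenic obesity, and many of its males become diabetic. In the liver, leptin and insulin signalling set the expression of binding proteins for insulin-like growth factors, while SREBP and PPAR transcription factors set the enzymes that make, store and burn fat. Growth hormone, which is secreted in a different pattern in males and females, sets the levels of many sex-biased cytochromes P450 and urinary proteins. The liver also secretes acute-phase proteins and holds resident macrophages that respond to interferon.

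Levels are read counts scaled to the library's total over genes (CPM, the usual depth-normalised unit), scaled with TMM factors. Differences are log2 fold changes of NZO/HlLtJ against the equally weighted mean of the other 8 strains, with the sexes averaged. Gene counts summed to between 48937397 and 57958257 in the NZO/HlLtJ libraries and to between 38773478 and 63341708 in the others. The NZO/HlLtJ liver differed from the mean of the other strains in 6999 of 14330 genes at an adjusted p under 0.05, by edgeR's quasi-likelihood test with Benjamini-Hochberg adjustment. Of all genes, 25.8% were higher and 23.1% were lower, and the median log2 fold change was -0.02. The test measures the spread between mice of a group. When each strain was reduced to 1 value and the strain was the unit of replication, 6 genes were called, all of them lower in NZO/HlLtJ, and Igfbp2 was among them. At an unadjusted p under 0.05 that test gave 684 genes, fewer than a share of 0.05 of the 14330 genes. Strain and cohort cannot be told apart: per the labels the mice entered the study in staggered cohorts, and which mice shared a cohort is not given in the sources used here.

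A stricter set held the genes that were called against each of the 8 strains in 1 direction. It held 358 higher genes, 2.5% of all genes, and 200 lower genes, 1.4%. In a further set no NZO/HlLtJ library overlapped any of the 47 other libraries, and it held 87 higher genes (0.607%) and 27 lower genes (0.188%), 114 in all, or 222 with the second NZO/HlLtJ male left out. Against single strains, the counts of called genes ran from 4313 against DBA/2J to 8861 against CAST/EiJ.

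1 male library stood apart. In the second NZO/HlLtJ male the summed level of 16 measured granulocyte markers was 387 CPM, against 4.42 to 9.75 CPM in the other 5 NZO/HlLtJ libraries and 2.75 to 25.7 CPM in the other strains. Its macrophage markers summed to 1923 CPM, against 545 to 938 CPM in the other NZO/HlLtJ libraries. Its hepatocyte markers summed to 74210 CPM, against 120600 to 146800 CPM. Without this male, 24.3% of all genes were higher and 20.9% lower, and 6008 of the 6999 genes were called again. All 10 hepatocyte markers were measured in the NZO/HlLtJ libraries, and their sum in the other strains was 77290 to 184000 CPM. In RNA from whole tissue, fewer cells of a type and less RNA per cell cannot be told apart.

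**Figure D1:**
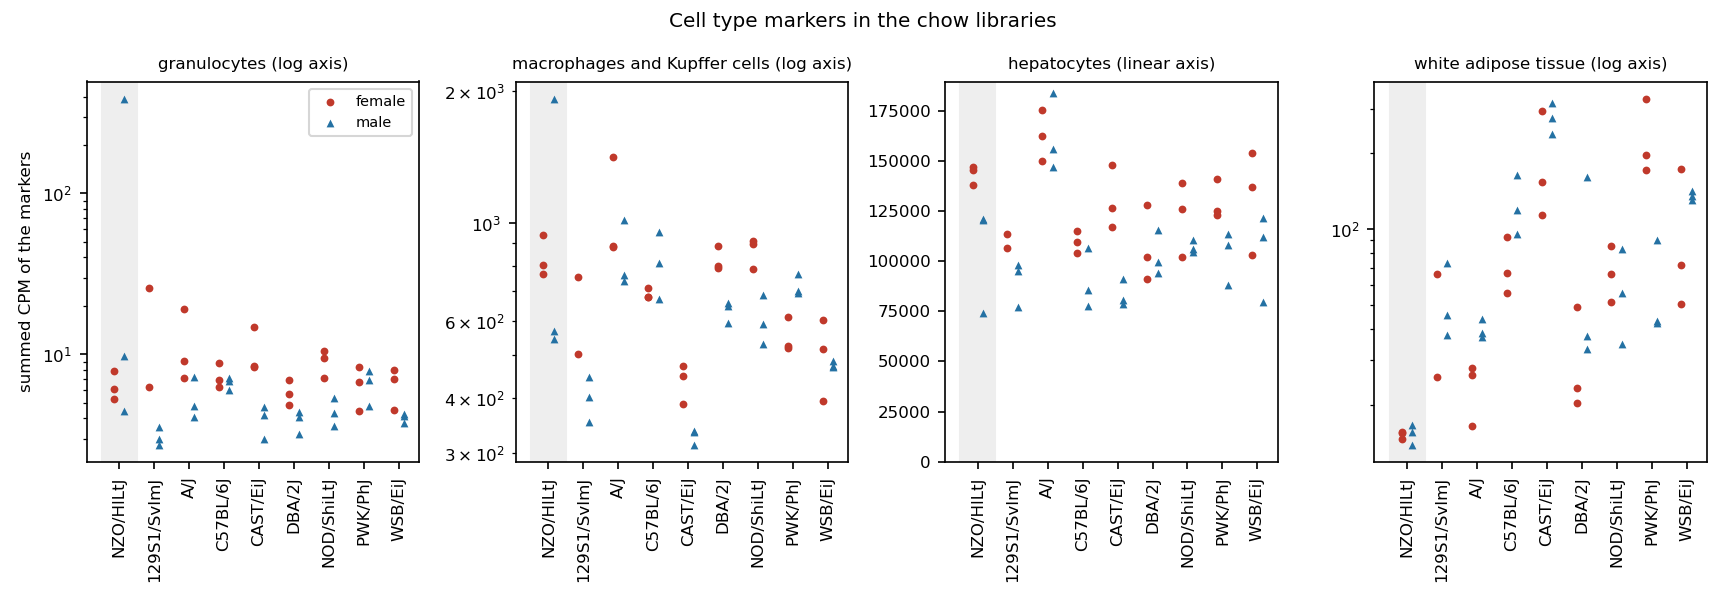
Summed CPM of the markers of granulocytes, macrophages, hepatocytes and white adipose tissue in each chow library, by strain, with females and males in different colours; the hepatocyte panel has a linear axis from 0 and the others a log axis. The second NZO/HlLtJ male reaches 387 CPM for granulocyte markers and lies at 74210 CPM for hepatocyte markers.

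Genes for binding proteins and a receptor of hormones that control growth and body weight were among the lower genes. Igfbp2, which encodes a binding protein for insulin-like growth factors (chr1:72824503-72852474, plus strand, GRCm38), was measured at 280.4, 127 and 212.5 CPM in NZO/HlLtJ females and at 127, 99.7 and 121 CPM in males. The other strains ranged from 582 to 2656 CPM with a median of 1576 CPM. All 6 NZO/HlLtJ libraries thus lay below all 47 others. The log2 fold change was -3.39 (SE 0.16, edgeR quasi-likelihood adjusted p = 8.57e-21), and it was -3.33 without the second male.

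Igfbp1, a related binding protein that insulin represses, was measured at 93.3, 37.7 and 103 CPM in NZO/HlLtJ females and 178, 204.5 and 154 CPM in males. The others ranged from 172 to 9011 CPM, and 43 of 47 lay above all NZO/HlLtJ libraries. Its log2 fold change was -2.33 (SE 0.45), and it was lower than in each of the 8 strains. Females alone gave -3.33, while the value for males was -1.33 and did not pass (adjusted p = 0.0794). Lepr, the leptin receptor (chr4:101717404-101815352, plus strand), was measured at 6.56, 6.73 and 6.56 CPM in females and 4.25, 7.24 and 3.28 CPM in males. Females of the other strains ranged from 16.8 to 493 CPM, all above the NZO/HlLtJ females, while the other males ranged from 1.82 to 417 CPM and overlapped the NZO/HlLtJ males. The log2 fold change of Lepr was -2.79 (SE 0.57, adjusted p = 0.000103). Females alone gave -3.73 and males alone -1.84 (adjusted p = 0.0593), and the difference between the sexes did not pass (adjusted p = 0.378). Lepr was lower than in 6 of the 8 strains, and splice forms of the receptor were not separated.

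Of 24 measured genes of insulin and growth hormone signalling, 7 were higher and 6 lower, with a median of 0.05, which is near the shares over all genes (25.8% and 23.1%). With the second male left out 7 were higher and 7 lower, at a median of -0.06. Irs2, an adaptor of the insulin receptor, had a log2 fold change of -1.22, and Bcl6, a repressor that growth hormone controls, of -1.44. Ghr, the growth hormone receptor, was higher by 1.00 (SE 0.13). Its levels were 446 to 569 CPM in NZO/HlLtJ, with 45 of the 47 other libraries below all 6. Igfals, which stabilises circulating insulin-like growth factor, was higher by 0.87, and Adipor2, an adiponectin receptor, by 0.55.

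**Figure D2:**
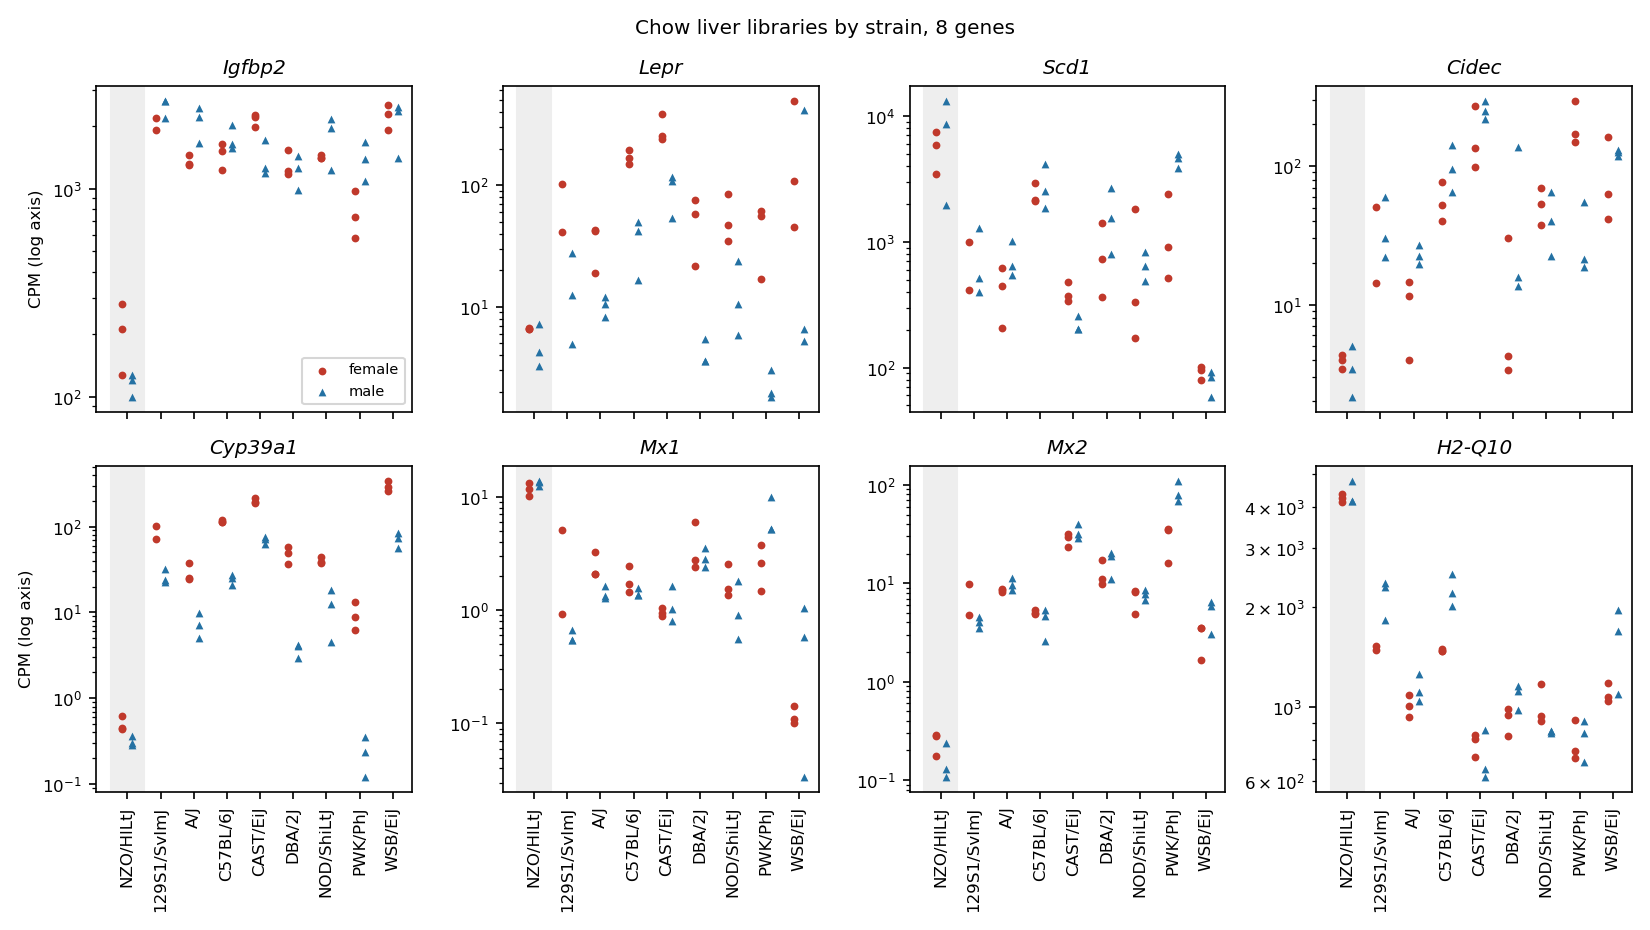
CPM on a log axis of 8 genes in each chow library, by strain and sex, with NZO/HlLtJ shaded. Igfbp2 and Mx2 lie below and Mx1 and H2-Q10 above every library of the other strains, while Lepr and Cyp39a1 overlap some males.

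Genes of fatty acid synthesis were more often higher than lower. Of 22 measured, 11 were higher and 2 lower, against 25.8% and 23.1% of all genes, and the median log2 fold change was 0.29. Scd1, the stearoyl-CoA desaturase that makes monounsaturated fatty acids (chr19:44394455-44407879, minus strand), was measured at 5918, 7489 and 3450 CPM in NZO/HlLtJ females and 13200, 1953 and 8664 CPM in males. The other strains had a median of 617 CPM and a range of 58.4 to 4997 CPM. The groups overlapped, but 37 of 47 other libraries lay below all NZO/HlLtJ libraries, and the log2 fold change was 3.27 (SE 0.25, adjusted p = 4.24e-14).

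Srebf1, the transcription factor that drives lipogenic genes, was measured at 208, 214 and 253 CPM in females and 170, 95.8 and 158 CPM in males. The other strains ranged from 21.9 to 150 CPM, and only the second NZO/HlLtJ male lay within that range. The log2 fold change was 1.74 (SE 0.17). Thrsp, a lipogenic regulator, was higher by 1.86, Acss2, an acetyl-CoA synthetase, by 1.31 and Acly, the ATP citrate lyase, by 0.60. The lower members were Acacb, an acetyl-CoA carboxylase that restrains fat oxidation, at -0.95 and Insig2, which holds SREBP inactive, at -0.98. Fasn, the fatty acid synthase itself, did not pass the test at 0.33.

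Cholesterol synthesis genes were also more often higher, with 15 of 25 measured genes higher, 1 lower (Hsd17b7, -0.36) and a median of 0.43. The shares over all genes were 25.8% and 23.1%, or 24.3% and 20.9% without the second male. Nsdhl, a sterol dehydrogenase, was measured at 31.7 to 41.3 CPM in NZO/HlLtJ, and 43 of 47 other libraries lay below all 6. Its log2 fold change was 1.04 (SE 0.14), and that of the phosphomevalonate kinase Pmvk was 0.88. Both were higher than in each of the 8 strains. Msmo1, a sterol oxidase, was higher by 0.93 and Insig1 by 0.89. With the second male left out the count was 11 higher and 1 lower. In males alone 10 were higher at a median of 0.47, and with that male left out 3 were, at a median of 0.09, against 14.4% of all genes.

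Of 24 measured genes of the lipid droplet and fat storage, 7 were higher and 10 lower, with a median of -0.11. With the second male left out 7 were higher and 7 lower, near the shares over all genes (24.3% and 20.9%). Fitm1, which buds droplets from the endoplasmic reticulum, was measured at 15.9, 28.3 and 25.1 CPM in females and 42.9, 16.8 and 35.1 CPM in males, and the others ranged from 0.021 to 24.9 CPM. In females there was no overlap, as the other females reached 5.14 CPM, and the log2 fold change over both sexes was 3.35 (SE 0.22). Vldlr, a lipoprotein receptor, was higher by 2.95 (SE 0.17), Mogat1, a monoacylglycerol acyltransferase, by 2.70, the fatty acid transporter Cd36 by 1.99 and the transcription factor Pparg by 1.90.

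Other members of the list were lower. Cidec, which fuses droplets, was measured at 3.97, 4.32 and 3.44 CPM in females and 5.01, 2.15 and 3.43 CPM in males. The other strains ranged from 3.38 to 296.5 CPM with a median of 53.6 CPM, and 44 of 47 lay above all NZO/HlLtJ libraries. Its log2 fold change was -3.90 (SE 0.49, adjusted p = 1.89e-08). Pnpla2, the adipose triglyceride lipase, was measured at 63.3 to 88.8 CPM, against 80.0 to 834 CPM, and 45 of 47 other libraries were above all 6. Its log2 fold change was -1.38 (SE 0.19), and that of its inhibitor Hilpda was -1.23. Cidec and 3 other genes were the measured part of a list of 10 white adipose markers. None of the 4 was higher and 3 were lower, or 2 with the second male left out. Adipoq, Lep, Plin1 and Retn were not among the genes of the table.

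Of 28 measured fat oxidation genes 3 were higher and 13 lower, against 25.8% and 23.1% of all genes, at a median of -0.31. In females alone 4 were higher and 6 lower, against 19.9% and 17.3% of all genes. In males alone 0 were higher and 16 lower by edgeR, against 19.5% and 13.1%, or 1 and 6 with the second male left out, against 14.4% and 9.58%. Ehhadh, an enzyme of peroxisomal oxidation (chr16:21761287-21787807, minus strand), was measured at 1031, 783 and 846 CPM in females and 520, 202 and 430.3 CPM in males, against 912 to 5883 CPM in the other strains. Of the 47 others, 46 lay above all NZO/HlLtJ libraries, and the log2 fold change was -2.20 (SE 0.22). Fgf21, a fasting hormone of the liver, was lower by 1.72 on the log2 scale, and Acot1, an acyl-CoA thioesterase, by 1.34. Ehhadh, Acaa1a, Hadhb and Acot1 were lower than in each of the 8 strains, Acaa1a not so with the second male left out. The higher members were Acot3 at 1.18, Vnn1 at 0.48 and Acaa2 at 0.31. Over both sexes without the second male, 3 were higher and 10 lower, at a median of -0.20.

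Genes of sugar handling differed in both directions. Of 22 measured genes of glucose production, glycolysis and glycogen, 10 were higher and 8 lower, against 25.8% and 23.1% of all genes. The median was 0.27. Khk, the fructokinase, was higher by 0.98 (SE 0.14) and Gckr, a regulatory protein of hepatic sugar metabolism, by 0.74, both against each of the 8 strains. Ppp1r3b and Ppp1r3c, which target a phosphatase to glycogen, were higher by 1.07 and 1.16. The related Ppp1r3g was lower, with a log2 fold change of -3.40 and an SE of 0.75. The liver glycogen synthase Gys2 was lower, at -1.003.

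**Figure D3:**
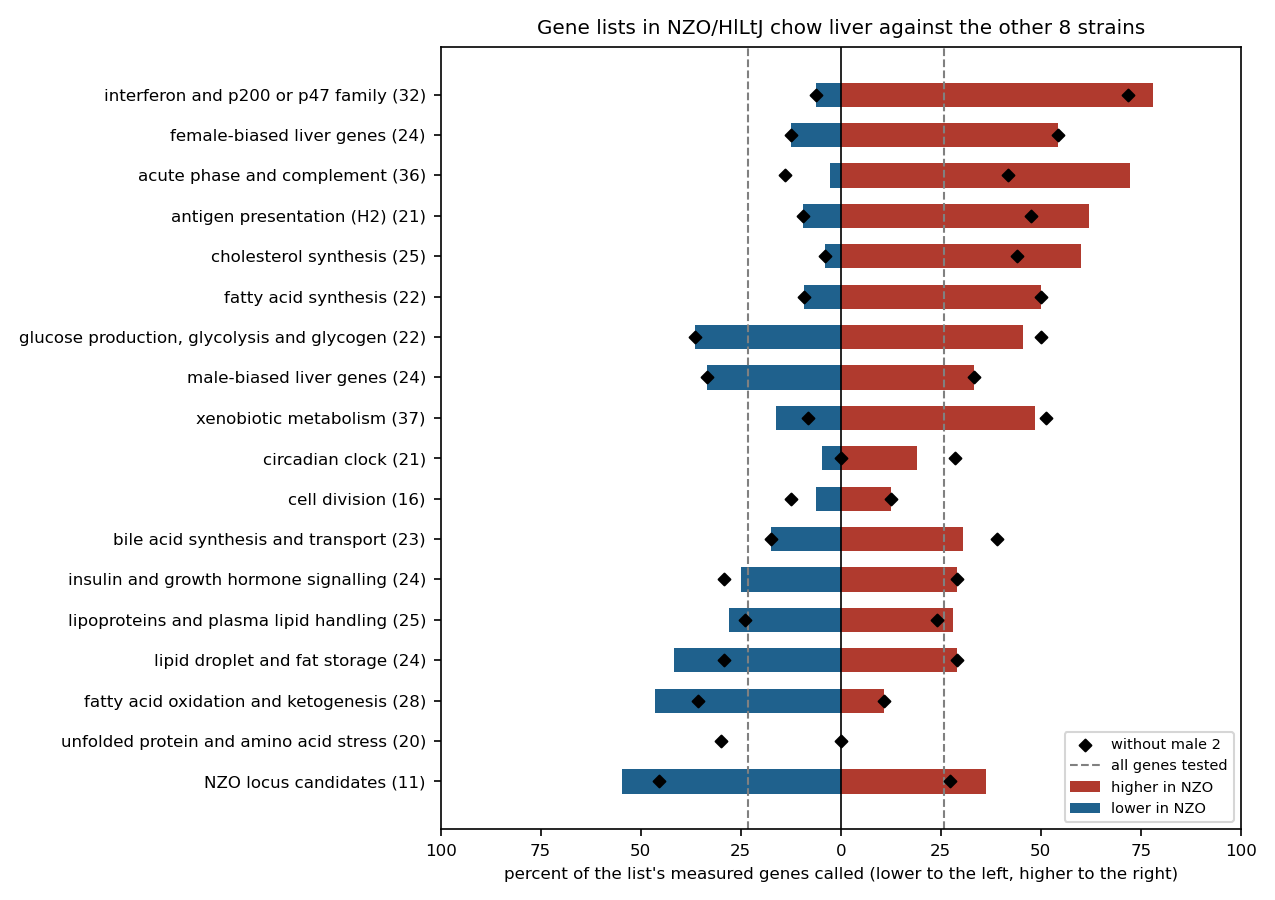
Percent of the measured genes of each list called higher (to the right) or lower (to the left) in NZO/HlLtJ on chow, with diamonds for the same without the second male and dashed lines for all genes, 25.8% and 23.1%. Interferon genes reach far to the right, with 25 of 32 higher, fat oxidation genes reach to the left, with 13 of 28 lower, and the acute phase list drops from 26 to 15 higher genes when the second male is left out.

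Several genes of bile acid metabolism differed. Cyp39a1, a hydroxylase of oxysterols (chr17:43667425-43751431, plus strand), was measured at 0.447, 0.434 and 0.614 CPM in NZO/HlLtJ females and 0.286, 0.365 and 0.304 CPM in males. The other strains had a median of 37.1 CPM and reached 340.2 CPM, with the lowest library at 0.121 CPM. 44 of 47 lay above all NZO/HlLtJ libraries, and the log2 fold change was -6.08 (SE 0.26, adjusted p = 1.46e-22). Cyp8b1, the hydroxylase of cholic acid synthesis, was measured at 240.2 to 535 CPM against 508 to 2476 CPM, and its log2 fold change was -1.82 (SE 0.18). Cyp7b1, an oxysterol hydroxylase, was lower at -1.40.

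Slc27a5, the ligase that activates bile acids, was measured at 1567, 1341 and 1508 CPM in females and 1374, 1533 and 1328 CPM in males. The highest of the 47 other libraries held 1161 CPM, so that the groups did not overlap, and the log2 fold change was 0.74 (SE 0.08). Akr1d1, a steroid reductase of bile acid synthesis, was higher by 1.37. Cyp7a1, the rate-limiting enzyme, did not pass at -0.37. In the whole list 7 of 23 measured genes were higher and 4 lower, with a median of 0.12. With the second male left out 9 were higher and 4 lower, at a median of 0.19, against 24.3% and 20.9% of all genes.

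Of 25 measured lipoprotein genes, 7 were higher and 7 lower, with a median of 0.00, again near the shares over all genes. Scarb1, the receptor that takes up cholesterol from high-density lipoprotein, was measured at 86.5 to 121.5 CPM, and 46 of 47 other libraries, which ranged from 120.5 to 510 CPM, lay above all 6. The fitted difference was -1.46 on the log2 scale (SE 0.14). Apoa1, the main protein of that lipoprotein, was lower at -0.93, and Apoa4 at -2.22. Pltp, the phospholipid transfer protein, was higher by 2.04 (SE 0.13), and higher than in each of the 8 strains.

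Sex-biased liver genes were tested in each sex as well. The shares of all genes were again 19.9% higher and 17.3% lower in females and 19.5% and 13.1% in males. Of 24 measured genes that are female-biased in mouse liver, 13 were higher and 3 lower, with a median of 1.01, over both sexes. A1bg, a secreted protein, was measured at 920, 848 and 1338 CPM in NZO/HlLtJ females and 3.13, 5.003 and 3.21 CPM in NZO/HlLtJ males. The other females ranged from 2.62 to 1152 CPM and the other males from 0.0404 to 3.02 CPM, and the log2 fold change was 4.09 (SE 0.29). Females therefore overlapped some females of other strains, while all 3 NZO/HlLtJ males lay above all other males.

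Cyp3a41a, a steroid-metabolising cytochrome, was measured at 943, 749 and 980 CPM in NZO/HlLtJ females and 18, 137 and 152 CPM in males. The median of the other males was 0.36 CPM and their highest value 66.3 CPM. Females differed by 1.62 and males by 7.39 on the log2 scale, and the difference between the sexes passed with and without the second male (adjusted p = 2.98e-06 and 2.81e-05). Hao2, a hydroxyacid oxidase, was higher by 4.09 in females and 4.39 in males. The lower female-biased genes included Fmo2, a flavin monooxygenase, at -1.06 and Cyp17a1, a steroid hydroxylase, at -2.12.

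Of 24 measured male-biased genes, 8 were higher and 8 lower, with a median of 0.22, or of 0.12 with the second male left out. The median was 0.43 in females alone, with 8 higher and 4 lower, and -0.17 in males alone, with 8 higher and 10 lower. Cyp2d9, a testosterone hydroxylase, was measured at 620, 538 and 630 CPM in NZO/HlLtJ males, below all other males at 799 to 3315 CPM. In females it was 13.2, 5.13 and 5.90 CPM against 4.60 to 187 CPM, and the log2 fold change over both sexes was -2.20 (SE 0.26). Hsd3b5, a steroid reductase, was measured at 23.1, 6.89 and 17.8 CPM in NZO/HlLtJ females, above all other females at 0.0711 to 5.96 CPM. In males it was 48.3, 17.2 and 98.4 CPM, within the range of 3.00 to 226.5 CPM of the others. Females differed by 4.98 on the log2 scale, while the value for males was 1.23 (adjusted p = 0.0568). The difference between the sexes passed with all libraries (adjusted p = 0.0154) and not with the second male left out (adjusted p = 0.164).

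The difference between the sexes was itself tested, and 192 genes passed. Of all genes, 0.844% were higher in males relative to females and 0.495% lower. Without the second male 61 genes passed, 53 of them in both analyses with 1 sign, and 12 of the 192 were granulocyte markers. With all libraries, 2 genes of the male-biased list were higher and 9 lower by this difference. In the female-biased list 4 were higher and 0 lower. Neither count was made with the second male left out. For Mup1, a major urinary protein, the log2 fold changes were 3.56 (females) and 0.72 (males), and the difference of -2.84 passed with and without the second male (adjusted p = 4.51e-06 and 0.00011). Of 20 measured Mup genes, 9 were lower by the difference, and 6 without the second male. Members of the Mup, Cyp2c, Cyp3a, Cyp2b and Sult2a families are near-identical, so reads could be split between them.

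**Figure D4:**
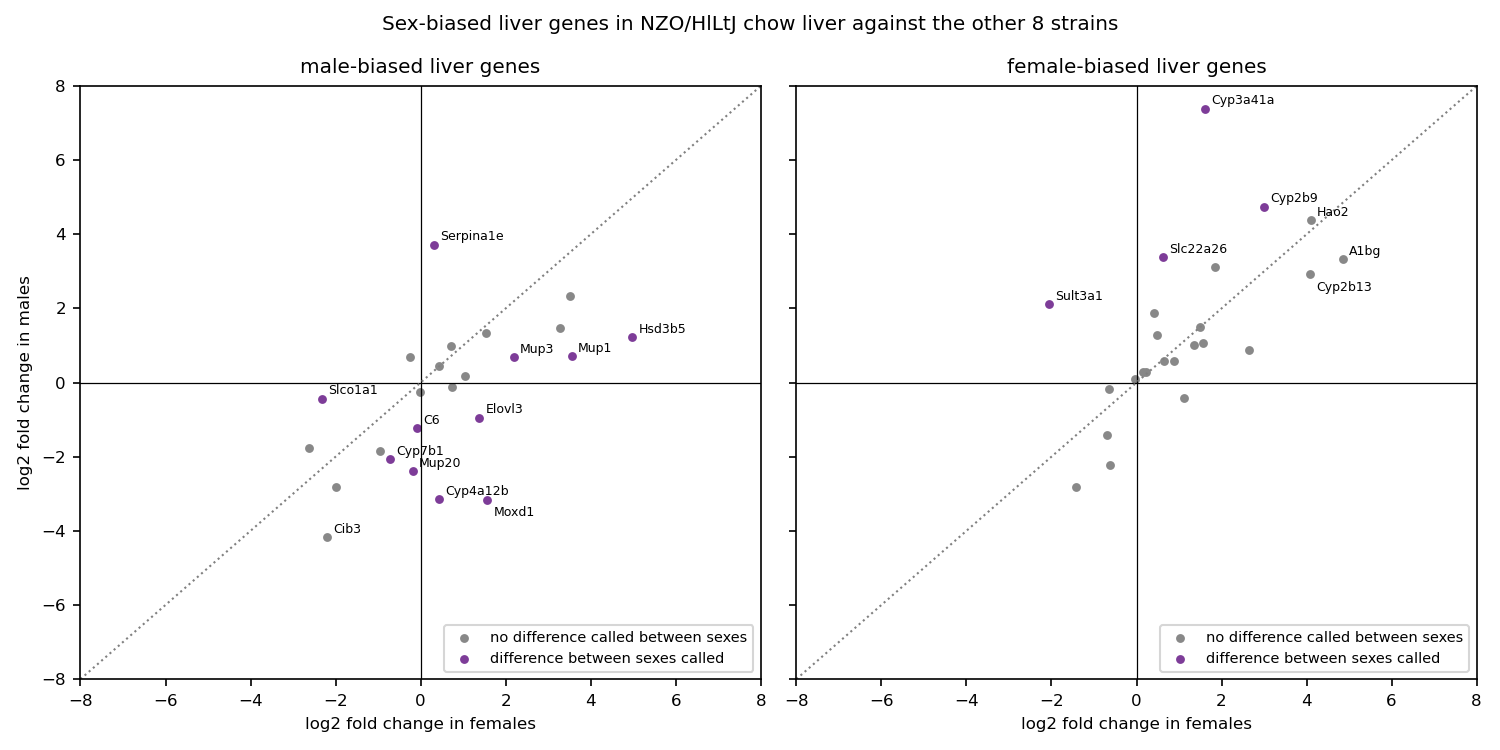
Log2 fold change of NZO/HlLtJ against the other strains in females (x axis) and males (y axis) for genes that are male-biased or female-biased in mouse liver, with the dotted line where both are equal. Cyp3a41a lies at 1.62 and 7.39, far above the line, and Hsd3b5 at 4.98 and 1.23, below it.

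Drug and toxin metabolism was measured by 37 genes, of which 18 were higher and 6 lower, against 25.8% and 23.1% of all genes. The median was 0.21. Gsta3, a glutathione transferase, was measured at 1315, 1362 and 1589 CPM in females and 1617, 593 and 1438 CPM in males, and the others ranged from 46.4 to 963 CPM. Only the second male overlapped them, and the log2 fold change was 1.75 (SE 0.15). Cyp2c39 and Cyp2c38 were higher by 2.20 and 2.18, but not against all 8 strains. Gstm2 and Gstm3 were lower, at -2.33 and -2.79. Without the second male 19 of the 37 were higher and 3 lower, at a median of 0.41, against 24.3% and 20.9% of all genes.

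Genes induced by interferon were mostly higher in NZO/HlLtJ. Of 32 measured genes, 25 were higher and 2 lower, against 25.8% and 23.1% of all genes, with a median of 1.09. Without the second male 23 were higher and 2 lower at a median of 1.08. Only 1 of the 32 was higher than in each of the 8 strains, and 1 was lower than in each. In females alone 22 were higher and in males alone 20, against 19.9% and 19.5% of all genes. In males without the second male, where 14.4% of all genes were higher and 9.58% lower, 13 were higher and 2 lower. Macrophage markers were higher in 15 of 25 genes with all libraries and in 9 without the second male, and their part in the interferon result was not tested.

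Promoters of 3 of the higher genes are shown. An element of GAAA, any 2 bases (NN) and GAAA again, a core that interferon regulatory factors bind, was searched on both strands in RefSeq promoters of GRCm38.p6, from 250 bases before to 50 after the start. It was present in 13 of the 20 higher genes with an entry (65%), in 17 of the 24 measured genes with an entry (70.8%), and in 412 of 10584 genes of the count table with an entry (3.89%). Promoters of Ifit1 (chr19:34640639-34640938, plus strand), Isg15 (chr4:156200769-156201068, minus strand) and Irgm1 (chr11:48871371-48871670, minus strand) follow, 5′ to 3′ on the strand of the gene, with the matches in capitals and overlapping matches merged.
Ifit1: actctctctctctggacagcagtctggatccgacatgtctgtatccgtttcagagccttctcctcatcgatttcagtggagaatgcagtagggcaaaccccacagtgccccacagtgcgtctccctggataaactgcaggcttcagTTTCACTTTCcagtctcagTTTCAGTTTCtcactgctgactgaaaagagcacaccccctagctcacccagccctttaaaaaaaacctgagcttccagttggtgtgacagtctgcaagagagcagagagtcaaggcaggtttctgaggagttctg
Isg15: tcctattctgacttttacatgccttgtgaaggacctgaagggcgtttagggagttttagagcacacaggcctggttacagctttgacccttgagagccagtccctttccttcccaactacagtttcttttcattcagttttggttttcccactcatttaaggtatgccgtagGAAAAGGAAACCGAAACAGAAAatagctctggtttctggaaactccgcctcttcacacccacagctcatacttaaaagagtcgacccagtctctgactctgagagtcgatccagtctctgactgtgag
Irgm1: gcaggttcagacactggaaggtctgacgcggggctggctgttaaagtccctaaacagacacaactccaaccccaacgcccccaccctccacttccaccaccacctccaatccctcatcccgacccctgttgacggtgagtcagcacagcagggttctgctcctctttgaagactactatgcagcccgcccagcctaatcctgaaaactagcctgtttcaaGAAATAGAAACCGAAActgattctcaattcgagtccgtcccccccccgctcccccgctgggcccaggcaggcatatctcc
A match says that these letters are present and is not a measured site of binding.

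Ifit1, an antiviral protein that binds foreign RNA, was measured at 11.8, 16.9 and 23.7 CPM in NZO/HlLtJ females and 20.4, 19.4 and 26.6 CPM in males. The others had a median of 7.51 CPM and ranged from 0.932 to 42.1 CPM. Ifit1 was higher by 1.53 on the log2 scale (SE 0.23), and higher than in 6 of the 8 strains. Isg15, a ubiquitin-like protein, was higher by 1.32 and Irgm1, a GTPase of the immunity-related family, by 1.59. The transcription factor Irf7 was measured at 44.9 to 67.2 CPM, against 2.20 to 99.7 CPM, and was higher by 1.43.

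Mx1 and Mx2, neighbouring genes on chromosome 16 that encode antiviral dynamin-like GTPases, differed in opposite directions. Mx1 (chr16:97447035-97462907, minus strand) was measured at 10.2, 11.8 and 13.3 CPM in females and 12.4, 13.8 and 13.4 CPM in males. All 47 other libraries lay below, between 0.0336 and 9.94 CPM, and the log2 fold change was 3.09 (SE 0.20). Mx2 (chr16:97535308-97560900, plus strand) was measured at 0.28, 0.178 and 0.287 CPM in females and 0.107, 0.236 and 0.13 CPM in males. All 47 others lay above, between 1.64 and 110 CPM, with a log2 fold change of -5.72 (SE 0.28). The reference to which the reads of each strain were aligned is not given in the sources used here, and strain variants in these genes were not examined.

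The p200 gene Ifi202b, which encodes a DNA-binding nuclear protein, was measured at 6.28, 9.26 and 12.1 CPM in females and 6.92, 17.1 and 7.14 CPM in males. In the other strains it ranged from 0 to 12.3 CPM, with a mean of 9.47 CPM in DBA/2J. It was higher by 3.25 (SE 0.15), and higher than in 7 of the 8 strains. Its relative Ifi203 was lower at -0.73. The p200 genes are similar in sequence, and Ifi202b has copies that short reads may not separate.

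Antigen presentation genes of the H2 complex were higher in 13 of 21 cases and lower in 2, against 25.8% and 23.1% of all genes. Their median was 0.52. H2-Q10, a secreted class I protein of liver (chr17:35470089-35474563, plus strand), was measured at 4368, 4254 and 4124 CPM in females and 4775, 4154 and 4148 CPM in males. The highest of the 47 others held 2511 CPM, and the log2 fold change was 1.94 (SE 0.07, adjusted p = 4.54e-25). H2-Q7 (chr17:35439155-35443773) and H2-Q6 lie close by and were lower, at -2.79 and -2.74. H2-Q7 was 1.61 to 3.76 CPM in NZO/HlLtJ and 4.004 to 92.2 CPM in the others, again without overlap. H2-Eb1, a class II chain, was higher by 2.27, with 0.144 to 115.5 CPM in the others. The H2-Q genes are near-identical copies, and their split is uncertain. Without the second male the H2 count was 10 higher and 2 lower, at a median of 0.34, against 24.3% and 20.9% of all genes. In males alone 9 were higher at a median of 0.25. With that male left out 5 were, at a median of -0.003, against 14.4% of all genes. In females alone 16 were higher and 2 lower at a median of 0.79, against 19.9% and 17.3%.

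Over both sexes, leaving out the second male moved the median of acute-phase and complement genes more than that of any other pathway list. With all libraries 26 of 36 were higher and 1 lower, with a median of 0.72, against 25.8% and 23.1% of all genes. Without that male 15 were higher and 5 lower, with a median of 0.03, against 24.3% and 20.9%. Saa1, a serum amyloid protein, was measured at 16.4 to 55.9 CPM in 5 NZO/HlLtJ libraries and at 24270 CPM in the second male, and its log2 fold change went from 2.733 to -1.05 (adjusted p = 0.174) without that male. Lcn2, a neutrophil and acute-phase protein, was 1.32 to 2.80 CPM in 5 libraries and 1662 CPM in the second male. With all libraries Lcn2 did not pass (log2 fold change 1.06, adjusted p = 0.117), and without that male it was lower, at -2.97. Mbl2, a mannose-binding lectin, did not rest on that male: it was measured at 501, 511 and 613 CPM in females and 457, 456 and 462 CPM in males, and 46 of 47 others lay below all 6. The value for Mbl2 was 0.98 on the log2 scale (SE 0.12) and 0.99 without the second male.

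Of 24 measured genes of the extracellular matrix and stellate cells, 1 was higher (Col6a3, 0.74) and 12 were lower, with a median of -0.45. Among all genes the shares were 25.8% and 23.1%. With the second male left out 10 of the list were lower, and in males alone 7 lower genes became 2, against 9.58% of all genes. The sum of the list was 328.5 to 451 CPM in NZO/HlLtJ and 310.2 to 1019 CPM in the others. Bgn, a matrix proteoglycan, was measured at 46.7 to 72.3 CPM with 43 of 47 others above all 6, and had a log2 fold change of -0.74 (SE 0.14). Pdgfra, a receptor of mesenchymal cells, was lower at -0.91 and Mmp12, a macrophage elastase, at -1.58. The summed level of endothelial markers was 442 to 524 CPM against 263 to 675 CPM. Of these 10 genes 2 were higher and 2 lower, near the shares over all genes (25.8% and 23.1%).

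For the marker counts that follow, the shares over all genes were 25.8% higher and 23.1% lower. With the second male left out they were 24.3% and 20.9%. Hepatocyte markers were higher in 4 of 10 and lower in 1, Cps1, at -0.57, and in 5 and 2 with the second male left out. Bile duct markers were higher in 1 of 6 and lower in 3, or in 0 and 1 by the same test with the second male left out. Of 14 B cell and plasma cell markers 5 were higher and 2 lower, and of 11 T and NK cell markers 3 were higher and 1 lower, which became 1 and 3, and 1 and 1, without the second male. Of 7 erythroid markers 3 were higher at a median of 0.65, or 2 at a median of -0.04 with that male left out, and 14 of 16 granulocyte markers were higher, or 4 without the second male. Macrophage markers were higher in 15 of 25 and lower in 0 by edgeR with a median of 0.56, and higher in 9 and lower in 3 with a median of 0.15 when that male was left out. Lyz2, a lysozyme of myeloid cells, was higher by 1.24, or by 0.81 without the second male. The 1 measured pancreas marker, Cela1, was not called.

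With all libraries, lists for cell stress and rhythm had few called genes. The shares over all genes were 25.8% higher and 23.1% lower, or 24.3% and 20.9% without the second male. Of 20 measured genes of the unfolded protein and amino acid stress responses 0 were called by edgeR with all libraries, at a median of -0.33. At an unadjusted p under 0.05 there were 2, DESeq2 called 2 lower and limma 1 lower, and edgeR called 6 lower with the second male left out. Of 21 clock genes 4 were higher and 1 was lower (Ciart, -1.27). With that male left out 6 were higher and 0 lower, and Ciart did not pass (adjusted p = 0.0832), nor did it in females or males alone. Of 16 cell division genes 2 were higher and 1 lower, or 2 and 2 with that male left out. Per3, a period protein, was higher by 1.17. All mice were killed within the same 2-hour window of the morning per the labels.

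Of 12 genes proposed as candidates at obesity and diabetes loci of this strain, 11 were measured. Among these, 4 were higher and 6 lower, against 25.8% and 23.1% of all genes. With the second male left out 3 were higher and 5 lower, against 24.3% and 20.9%. Zfp69, a zinc finger gene linked to diabetes in obese mice (chr4:120930137-120951699, minus strand), was measured at 1.06, 0.967 and 0.676 CPM in females and 1.502, 0.902 and 1.24 CPM in males. The others ranged from 0.928 to 4.14 CPM, 42 of 47 above all NZO/HlLtJ libraries, and the log2 fold change was -1.27 (SE 0.15). Gm4951, a GTPase gene that is induced by interferon, was 5.13 to 9.44 CPM against a median of 36.2 CPM and lower by 1.92 on the log2 scale, but 6 other libraries, with a mean of 1.52 CPM in CAST/EiJ, lay below all 6. Tbc1d1, a regulator of glucose transport, was lower at -0.53. Fbp1, the fructose bisphosphatase, was higher by 0.50 and Dpp4, a peptidase, by 0.22. Pctp at -0.41 and Abcg1 at 0.42 lost the call without the second male. F830016B08Rik did not pass (adjusted p = 0.83).

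Several genes of the strict set with high fold changes had low levels in the other strains. Myom3, a sarcomere protein of muscle (chr4:135759715-135815564, plus strand), was measured at 48.7, 53.3 and 41.1 CPM in NZO/HlLtJ females and 65.5, 61.2 and 59.7 CPM in males. The 47 others held 0.307 to 8.66 CPM, and the log2 fold change was 4.90 (SE 0.15). A4gnt, a glycosyltransferase, was 10.3 to 27.8 CPM against at most 3.36 CPM, with a log2 fold change of 6.76. Ncapg, a condensin subunit, was 3.02 to 5.28 CPM against at most 0.712 CPM, with a log2 fold change of 4.40.

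Among lower genes of the strict set was Cd207, the lectin langerin, which was 0.0217 to 0.429 CPM against 0.814 to 22.2 CPM without overlap. Cdh1, the epithelial cadherin, was 2.45 to 4.25 CPM against 6.09 to 61.9 CPM, also without overlap, with a log2 fold change of -2.77 (SE 0.22). Lrit1 and Lrit2, adjacent genes on chromosome 14, were lower together. Nlrp12, an inhibitor of inflammatory signalling, was lower at -4.34. Bglap3, an osteocalcin-like gene, and Ngp, a granule protein, owed their height to 1 male each: 68.6 CPM in the first male and 44.9 CPM in the second, against at most 1.74 and 0.956 CPM in the other 5 libraries. Bglap3 had at most 2.16 CPM in the other strains.

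The genes of the strict set were spread over the chromosomes, from 3.26% of the tested genes on chromosomes 7 and 13 to 5.14% on chromosome 3. 5 windows of 1000000 bases held at least 4 of these genes. 1 of them, on chromosome 17 from 35000001 to 36000000, held H2-Q2 and H2-Q10 (higher) and H2-Q6 and H2-Q7 (lower). Another, on chromosome 4 from 63000001 to 64000000, held Orm1, Orm2, Ambp and Col27a1, all higher. With the second male left out, Orm1, Orm2 and Ambp were no longer called against each strain, and their log2 fold changes went from 2.51 to 1.28, from 3.31 to -0.06 and from 0.74 to 0.41. Ambp was measured at 7942 CPM in that male and at 2696 to 3366 CPM in the other 5 NZO/HlLtJ libraries.

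The high-fat diet gave a separate view, since the mice differed from those on chow. In that comparison 20.7% of all genes were higher and 15.7% lower in NZO/HlLtJ. Of the 558 genes called against each strain on chow, 514 (92.1%) were called in the same direction on the high-fat diet and 1, Mpo, in the opposite direction. The log2 fold change of Mpo, a granulocyte enzyme, was 2.93 on chow and 0.10 with the second male left out. Of all 6999 genes called on chow, 4083 (58.3%) were called in the same direction and 20 in the opposite direction. Of the 114 genes without overlap on chow, 113 were called again.

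Igfbp2 was measured at 141, 160 and 127 CPM in the 3 high-fat females and 201 CPM in the male, against 517 to 3003 CPM in the others, with a log2 fold change of -3.15. Scd1 was higher by 3.91 and Mx1 by 2.69 on this diet, Mx2 was lower at -6.39, and H2-Q10 was higher by 2.17. For Cidec the value was -1.61 (adjusted p = 0.00943), against -3.90 on chow. The median of Cidec in the other strains was 13.0 CPM on the high-fat diet and 53.6 CPM on chow. Among the chow differences that did not pass on the high-fat diet were those of Pnpla2, Ghr and Lepr (adjusted p = 0.0645, 0.0846 and 0.102, log2 fold changes of -0.54, 0.40 and -1.35). Apoa4, Mmp12 and Acacb, lower on chow, had values of -0.24, 0.68 and 0.19 there (adjusted p = 0.607, 0.113 and 0.594). Whether these differences changed with the diet was not tested.

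**Figure D5:**
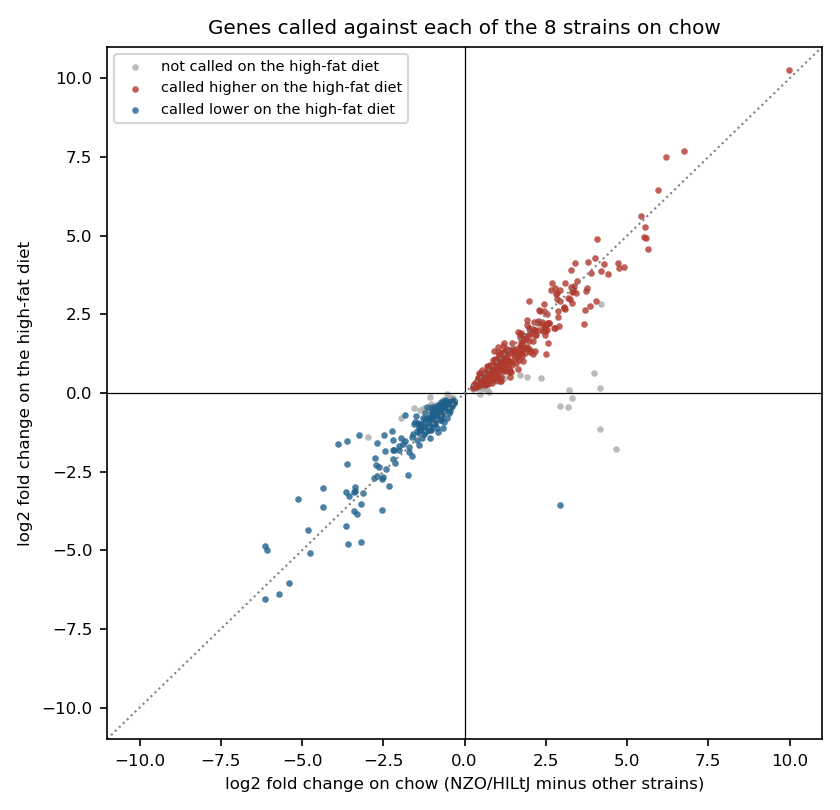
Log2 fold change of NZO/HlLtJ against the other strains on chow (x axis) and on the high-fat diet (y axis) for the 558 genes called against each strain on chow; colour marks whether a gene was called in the same direction on the high-fat diet. Of these genes 514 were called in the same direction, and several granulocyte genes lie high on the chow axis and near or below 0 on the other.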

How the data were processed

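Liver RNA of 106 mice was sequenced from SMARTER mRNA libraries, and the authors deposited 1 table of read counts per gene. Its name speaks of TMM, but its values are whole counts with differing totals. The submitters' processing notes name FastQC, STAR 2.73a and edgeR 3.24.3. The counter, its strand setting, the genome build and any filter are not given in the sources used here. Summary entries that name no gene stayed out of library sizes and tests; in the NZO/HlLtJ libraries they held 15.8% to 20.4% of the total as not unique, 5.65% to 6.54% as ambiguous and 4.06% to 5.58% as no feature.

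Counts were fitted with edgeR 4.0.16 in R 4.3.3 (TMM, trended dispersion, quasi-likelihood F test) over 53 chow libraries with a mean for each strain and sex and 35 residual degrees of freedom. The contrast was NZO/HlLtJ, sexes averaged, minus the mean of the other 8 strains, with Benjamini-Hochberg adjustment over 14330 genes and a threshold of 0.05. The 52 high-fat libraries were fitted apart and share no library with chow. Levels are CPM, and the SE is the log2 fold change divided by the root of F. Gene positions are those of GENCODE M21 (GRCm38). Alternatives used DESeq2 1.42.0 and limma 3.58.1, other filters and scalings, and each chow library left out in turn (on the high-fat diet and for the set without overlap, each NZO/HlLtJ library only); the 47 chow fits for the other strains reused the dispersion estimated from all chow libraries. The procedure was tested on simulated data.

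The members and gene lists were chosen with earlier results of these data known. The rule for named genes took, among protein-coding genes with a symbol, the 12 highest and 12 lowest log2 fold changes called against each strain at a mean of at least 1 CPM, the 5 highest and 5 lowest differences in CPM without overlap, up to 3 higher and 3 lower called members of each list, all locus candidates, and the 4 highest and 4 lowest differences between the sexes. Other named genes were chosen after their values were seen. Some named genes are not reported here.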

Additional observations from a re-analysis of the deposited data

Results flagged for a closer look

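The second NZO/HlLtJ male on chow lay far from the other 5 NZO/HlLtJ chow libraries in 4 sums of cell type markers. Gaps past the limit used here arise by chance in about 1 in 20 groups. Its granulocyte markers summed to 387.4 CPM (next library 9.751), its macrophage markers to 1923 CPM (next 937.9), its hepatocyte markers to 74210 CPM (next 120600) and its bile duct markers to 75.38 CPM (next 59.3). Their part in the male results was not tested beyond leaving this library out.

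The difference between NZO/HlLtJ and the other strains itself differed between the sexes in 192 genes, and in 61 without the second male. Among the named genes, the value in males minus that in females was -3.753 for Hsd3b5, 10.332 for Lcn2, -4.725 for Moxd1, -3.658 for Mup11, -4.492 for Mup12, 7.556 for Prtn3, 8.706 for Saa1 and 10.169 for Saa2, on the log2 scale. Of these 8 differences, 5 lost the call without the second male.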

How the results depend on the processing

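No paired analysis was possible because the labels carry no replicate numbers; replicates were numbered in accession order. The chow count of 6999 genes was 7163 with DESeq2, 6966 with limma, 6960 with upper-quartile scaling, 6252 with a filter at 1 CPM and 6641 without CAST/EiJ, PWK/PhJ and WSB/EiJ. Without these 3 wild-derived strains, 5402 of the 6999 genes were called again with the same sign. Of the 157 genes named by the rule, 25 lost the call in that setting. With the strain as the unit it was 6. With a log2 fold change of at least 1 the counts were 1519 on chow, 1599 in females, 1528 in males, 139 against each strain and 1354 on the high-fat diet. The sex difference was called in 323 genes with DESeq2, 117 with limma, 312 with a shared spread and 61 without the granulocyte-rich library, and the set without overlap then held 222. Leaving out each of the 53 chow libraries in turn gave 6166 to 7339 genes on chow, 3671 to 5638 in females, 3436 to 5018 in males, 61 to 299 for the sex difference and 473 to 619 against each strain. Only NZO/HlLtJ libraries were left out in turn for the set without overlap (6 libraries, 121 to 222) and on the high-fat diet (4 libraries, 4594 to 6161, where leaving out the only male left a comparison of females); leaving out the other strains' libraries was not run there. The 61 came without the second NZO/HlLtJ male and the 299 without the first. Direction turned for Dnase1l3 (-0.08) and Krt23 (0.10) without the 3 wild-derived strains. When the second male was left out, the log2 fold change of Orm2 was -0.056, the log2 fold change of Saa1 -1.049, the log2 fold change of Saa2 -0.905 and the log2 fold change of Slc4a1 -0.04, and without the first male they were 3.604, 3.025, 3.784 and 1.638. The cause was not tested. Leaving that library out, and DESeq2, upper-quartile scaling and limma for the list counts, were chosen after seeing the data; of 58 list counts, 16, 4, 1 and 7 moved by over 1.5 times. Depth limits genes at a few counts per library. For some of these only levels are given, as for Cd207. Others, such as Gstm3 and Mup11 with a few counts in some groups, have log2 fold changes or differences between the sexes given.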
